A study of Mus musculus with 4 samples.

Results

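Solute carrier (Slc) transporters expressed in 2 subsets of mouse liver natural killer (NK) cells were examined, as the 151 of 342 Slc genes listed in the data whose level reached 1 RPKM, that is, reads adjusted for the length of the gene and the depth of the library, in at least 2 of the 4 libraries. Slc16a1, Slc16a3, Slc2a1 and Slc2a3 also reached that level and were left out by the rule. The symbol and the level in these libraries chose the members, so their presence is not a result. NK cells of C57BL/6 liver had been flow-sorted as TCRb-NK1.1+NKp46+ cells into a TRAIL+CD49b- subset (TRAIL+, 2 libraries) and a TRAIL-CD49b+ subset (CD49b+, 2 libraries), with no treatment, genotype or age given in the labels. The labels do not say that replicates came from separate mice, so each p-value reflects only how far the sequenced libraries vary, possibly for technical reasons.

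The reads behind the RPKM values, worked out from their steps, were 4071617 and 3786497 in TRAIL+ replicates 1 and 2 and 4232967 and 3933014 in CD49b+ replicates 1 and 2. A level of 1 RPKM corresponded to 7.57 to 8.47 reads where the transcript measures 2000 bases. The 8 NK cell markers listed were all expressed, with summed levels of 13811 and 20300 RPKM in TRAIL+ and 19548 and 23090 in CD49b+ libraries, and 1 of them was called lower in TRAIL+ cells. Tnfsf10, which encodes TRAIL, and Itga2, which encodes CD49b, differed in the direction of their labels, which the gates set. Of the 9 T-cell markers with a row, 5 were called higher and 1 lower in TRAIL+ cells, with summed levels of 887 and 1196 RPKM against 45.6 and 54.7. Cd3g made up 812 and 1060 RPKM of these in TRAIL+ libraries and 6.65 and 11.1 in CD49b+ libraries. The part of that signal in the results below was not tested. In these bulk libraries fewer cells with a transcript and less transcript per cell cannot be told apart.

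Slc proteins carry amino acids, sugars, nucleotides, lipids, vitamins, metals and inorganic ions across the plasma membrane and the membranes of organelles. Many of them run on the sodium gradient that the sodium-potassium pump builds, or on proton gradients of lysosomes and the Golgi. In NK cells, uptake of amino acids and glucose is known to feed growth and effector function after cytokine stimulation, and zinc and iron carriers supply metals to enzymes and transcription factors.

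Among the 151 members, TRAIL+ cells had more transcript of 7 and less of 5 at an adjusted p below 0.05 from limma, fitted to log2(RPKM + 1), and 139 did not pass. That is 7.95% of members, beside 8.62% of all 10047 tested genes (4.76% higher and 3.86% lower), so the share of Slc genes called was near the background. The median log2 fold change of the members was 0.02, beside 0.00499 for all tested genes, and the median of its absolute size was 0.24 in each. An unadjusted limma p under 0.05 was found in 37 of the 151 members and in 2006 of the 10047 tested genes. Libraries of the groups did not overlap in 88 members, or 58.3%, beside 46.8% of all tested genes. The 95% interval of the difference lay within 2-fold in 107 members and in 6468 of the 10047 tested genes. In the other members a 2-fold difference was not bounded at this depth and replication. The counts were 3 higher and 3 lower without either CD49b+ library and 8 and 8 without either TRAIL+ library. In those 4 fits the members' share called was 3.97%, 3.97%, 10.6% and 10.6%, beside 4.41% and 4.65% of all genes without CD49b+ replicates 1 and 2 and 15.3% and 10.9% without TRAIL+ replicates 1 and 2.

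**Figure D1:**
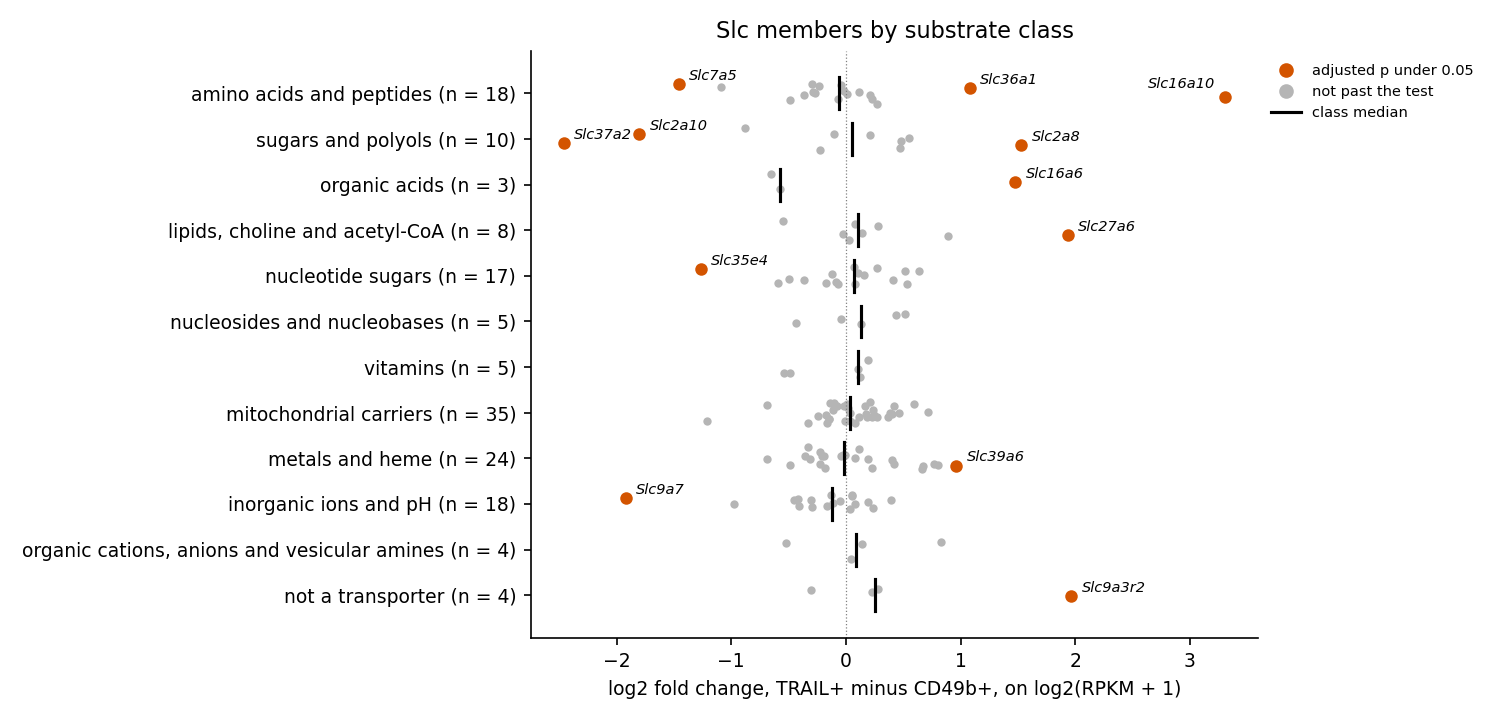
Log2 fold change (TRAIL+ minus CD49b+, on log2(RPKM + 1)) of each of the 151 Slc members, 1 point a gene, grouped by substrate class with the class median as a black bar. The 12 named points passed the test, and the medians of all classes but the organic acids lie between -0.12 and 0.25.

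The members higher in TRAIL+ cells were the aromatic amino acid carrier Slc16a10, the scaffold gene Slc9a3r2, the fatty acid transport protein gene Slc27a6, the hexose carrier Slc2a8, the monocarboxylate carrier family gene Slc16a6, the lysosomal amino acid carrier Slc36a1 and the zinc carrier Slc39a6. Lower in TRAIL+ cells were the sugar phosphate carrier Slc37a2, the Golgi sodium-proton exchanger Slc9a7, the facilitative carrier Slc2a10, the large neutral amino acid carrier Slc7a5 and the orphan carrier Slc35e4. Of these 12, Slc37a2 and Slc2a10 reached the level threshold through the CD49b+ libraries alone, so they had to differ. Slc9a3r2 encodes a PDZ protein that anchors transporters and is no transporter itself. It stood at 9.43 and 10.03 RPKM in TRAIL+ and 1.25 and 2.36 in CD49b+ libraries. TRAIL+ cells were 5.39-fold higher (1.96 ± 0.26 SE on the log2 scale, limma adjusted p = 0.0105), a call missed without CD49b+ replicate 1 (adjusted p = 0.0522). Its close relative Slc9a3r1, at 201 to 240 RPKM the most abundant of the 4 members that are not transporters, did not pass the test (0.23, 95% interval -0.17 to 0.63). All members named from here on beyond those called, the most abundant member of each class and those nearest the level threshold were chosen after their values were seen. The same holds for the genes of related lists named below that were not called.

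**Figure D2:**
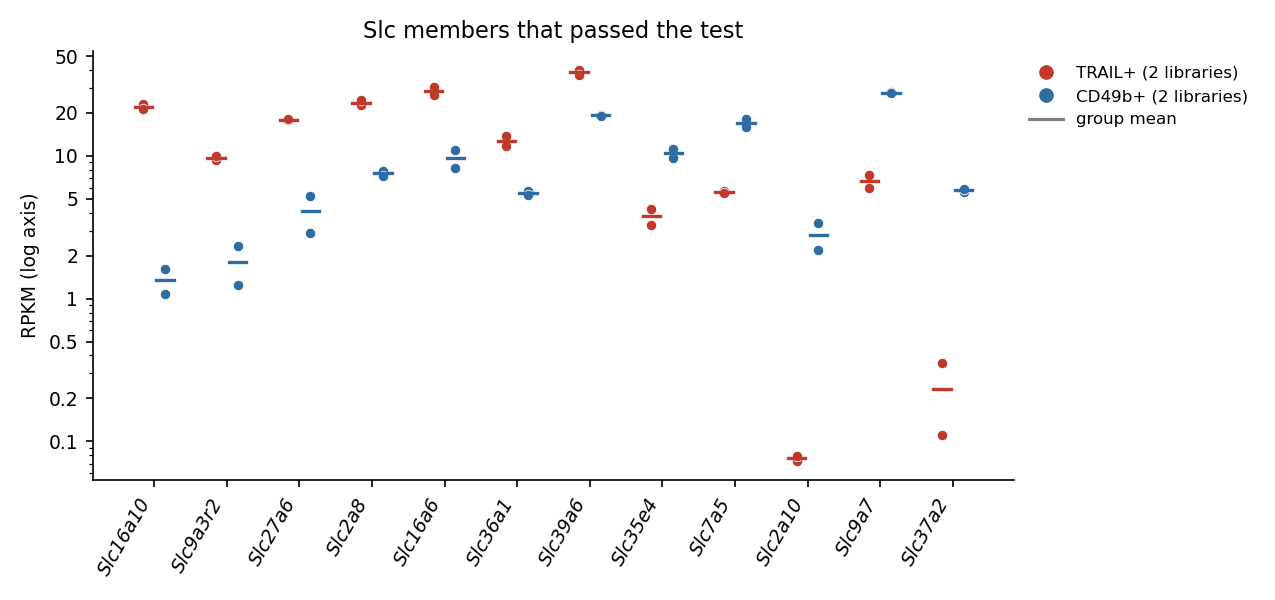
RPKM (log axis) of the 12 called Slc members in each library, with TRAIL+ in red, CD49b+ in blue and bars for group means of 2 libraries. Every library of one group lies above both of the other, and Slc16a10, Slc2a10 and Slc37a2 show the widest gaps.

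The 250 bases before the transcription start are shown for the called transporters with the largest changes in each direction that have a single start in the RefSeq table of build GRCm38.p6, and for Slc36a1. The table is a later build than the authors' mm9 and was matched by symbol, with 8 of the 12 called genes found. Capitals mark GGTGTGA (the T-box half-site), GCGTG (the core bound by the aryl hydrocarbon receptor), CACGTG (the E-box), TGATGNAA (an ATF4 element) and GGGCGG (the GC box), searched on both strands, with no overlap among the matches shown.
Slc16a10 (chr10:40142255-40142504, minus strand, higher in TRAIL+): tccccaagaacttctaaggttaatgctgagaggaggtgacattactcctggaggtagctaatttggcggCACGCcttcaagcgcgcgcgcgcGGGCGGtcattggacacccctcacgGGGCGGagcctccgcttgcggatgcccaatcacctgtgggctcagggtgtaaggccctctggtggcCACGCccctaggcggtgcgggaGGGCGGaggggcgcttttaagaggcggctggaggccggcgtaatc
Slc2a8 (chr2:32982084-32982333, minus strand, higher): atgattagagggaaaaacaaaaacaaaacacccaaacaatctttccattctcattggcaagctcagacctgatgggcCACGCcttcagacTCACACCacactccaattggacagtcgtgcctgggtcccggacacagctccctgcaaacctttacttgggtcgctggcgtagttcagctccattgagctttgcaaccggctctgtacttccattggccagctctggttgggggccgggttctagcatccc
Slc36a1 (chr11:55204090-55204339, plus strand, higher): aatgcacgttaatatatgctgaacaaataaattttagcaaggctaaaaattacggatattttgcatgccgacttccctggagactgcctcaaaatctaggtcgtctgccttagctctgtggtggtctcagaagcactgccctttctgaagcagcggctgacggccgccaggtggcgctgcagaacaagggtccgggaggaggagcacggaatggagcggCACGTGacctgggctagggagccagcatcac
Slc37a2 (chr9:37255739-37255988, minus strand, lower): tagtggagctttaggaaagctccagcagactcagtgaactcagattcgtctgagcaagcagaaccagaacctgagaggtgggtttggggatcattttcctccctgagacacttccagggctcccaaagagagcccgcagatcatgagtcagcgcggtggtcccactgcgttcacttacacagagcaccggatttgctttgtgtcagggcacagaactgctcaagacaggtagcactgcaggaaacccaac
Slc9a7 (chrX:20291828-20292077, minus strand, lower): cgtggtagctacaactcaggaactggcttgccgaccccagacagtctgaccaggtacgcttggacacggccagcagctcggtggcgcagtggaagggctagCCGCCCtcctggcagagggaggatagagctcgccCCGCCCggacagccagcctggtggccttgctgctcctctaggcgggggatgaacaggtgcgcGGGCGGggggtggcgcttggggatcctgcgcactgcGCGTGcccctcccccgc
The Slc16a10 window held the GCGTG core at 2 places, both on the strand opposite to the one printed, and 3 GC boxes. The Slc2a8 window held 1 T-box half-site and 1 GCGTG core, and Slc36a1 had 1 E-box. In contrast, the Slc37a2 window had none of the 5 motifs, and Slc9a7 had 1 GCGTG core and 3 GC boxes. Over all 32851 promoter windows of this length, GGTGTGA was found in 3.33%, GCGTG in 28.2%, CACGTG in 6.02%, TGATGNAA in 3.45% and GGGCGG in 32.7%. Over the 153 windows of 115 members, the shares were 3.27%, 45.1%, 13.1%, 1.31% and 65.4%. The GC content of the windows printed ran from 52.8% to 69.6%, beside a median of 52.4% over all windows. Slc16a10 and Slc9a7, called in opposite directions, both held the GCGTG core and the GC box, and a match is a description of the letters only.

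The amino acid class held the member with the largest fold change on the log2 scale, Slc16a10, and members called in each direction. Of 18 amino acid and peptide members, 2 were higher, 1 was lower and 15 did not pass, with a median log2 fold change of -0.06. The share called was 16.7%, beside 8.62% of all tested genes. Slc16a10, which moves phenylalanine, tyrosine and tryptophan by facilitated diffusion, stood at 23.0 and 21.3 RPKM in TRAIL+ libraries and 1.62 and 1.08 in CD49b+ libraries, from 615, 530, 45 and 28 reads. The groups were far apart, TRAIL+ being 16.4-fold higher (3.31 ± 0.22 on the log2 scale, limma adjusted p = 0.00109), and the call was kept in each of the 14 alternative settings. Slc36a1, a proton-coupled carrier of small amino acids on lysosomes, stood at 13.8 and 11.8 RPKM against 5.72 and 5.29, a 2.32-fold difference (1.08 ± 0.19, limma adjusted p = 0.0286). Leaving out CD49b+ replicate 1 or 2 ended the call of Slc36a1 (adjusted p = 0.221 and 0.280), as did using no filter on low values.

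Slc7a5 (LAT1), the exchanger for leucine and other large neutral amino acids, went the other way. It stood at 5.72 and 5.47 RPKM in TRAIL+ and 18.2 and 16.02 in CD49b+ libraries, 3.06-fold lower in TRAIL+ cells (log2 fold change -1.46 ± 0.19, limma adjusted p = 0.00885). Neither fit with CD49b+ replicate 1 or 2 left out called it (adjusted p = 0.113 and 0.0704). Its obligate heavy chain Slc3a2 (CD98), the most abundant member of the class, was at 64.1 and 64.0 RPKM in TRAIL+ and 65.1 and 64.5 in CD49b+ libraries. The difference in Slc3a2 was -0.02 with a 95% interval of -0.39 to 0.35. Per length, Slc7a5 thus stood at 0.0891 and 0.0855 of the Slc3a2 level in TRAIL+ libraries and at 0.280 and 0.248 in CD49b+ libraries. The cationic amino acid carrier gene Slc7a1 lay on the same side as Slc7a5, at 10.5 and 7.64 RPKM against 23.1 and 17.7. Slc7a1 missed the threshold (-1.09 ± 0.24, limma adjusted p = 0.0526), and its log2 fold change was -1.30 without TRAIL+ replicate 1. Its groups did not overlap, which also held for 46.8% of all tested genes.

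Slc1a5, Slc38a2 and Slc38a1, sodium-coupled carriers that take up glutamine among other amino acids, did not pass the test. Slc1a5 (ASCT2) was at 46.0 and 43.2 RPKM in TRAIL+ and 48.2 and 43.9 in CD49b+ libraries, with a 95% interval of the difference of -0.43 to 0.35. For Slc38a2 (SNAT2) the levels were 51.3 and 44.3 against 55.2 and 62.1 RPKM (interval -0.71 to 0.13), and for Slc38a1 (SNAT1) 32.9 and 31.0 against 27.0 and 27.4 (interval -0.16 to 0.61). These intervals leave differences up to about those bounds unresolved. In the genes of amino acid sensing around mTORC1, 0 of 25 tested were called (3 had an unadjusted limma p under 0.05), and in the ATF4 amino acid response list 0 of 11 (2 had). Over all tested genes 8.62% were called, and 2006 of 10047 had an unadjusted limma p under 0.05. Sesn1 and Sesn3, sestrins that restrain mTORC1, were at 46.3 and 68.5 against 21.8 and 31.5 RPKM and at 76.0 and 46.0 against 30.4 and 26.5. Neither sestrin passed the test (limma adjusted p = 0.0802 and 0.0846). Both did without TRAIL+ replicate 1 (Sesn1 adjusted p = 0.0104, Sesn3 0.0488), and Sesn3 also without TRAIL+ replicate 2 (0.00368).

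**Figure D3:**
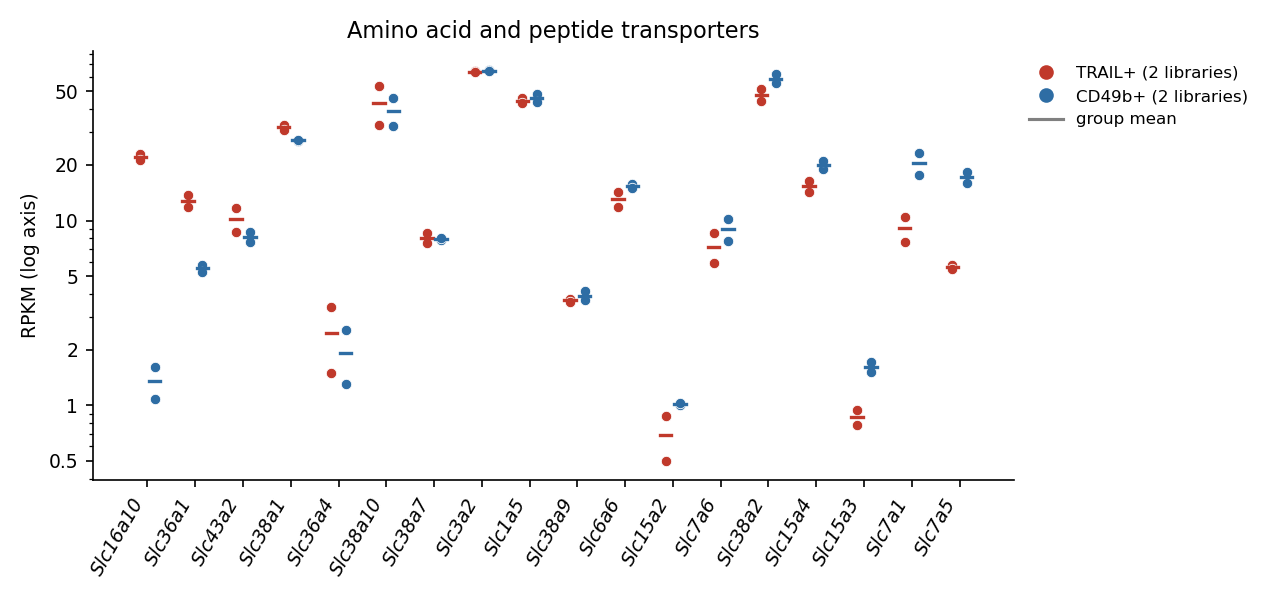
RPKM (log axis) of the 18 amino acid and peptide members in each library, ordered by log2 fold change, with TRAIL+ in red, CD49b+ in blue and bars for group means. Slc16a10 at the left and Slc7a1 and Slc7a5 at the right stand apart, and Slc3a2 and Slc1a5 lie level.

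Sugar carriers included members called in each direction. Of 10 members for sugars and polyols, 1 was higher and 2 were lower in TRAIL+ cells, with a median of 0.06. The share called was 30%, beside 8.62% of all tested genes, and both lower members reached the level threshold through the CD49b+ libraries alone. Slc2a8 (GLUT8), a hexose carrier of intracellular membranes, stood at 22.6 and 24.6 RPKM against 7.79 and 7.29, a 3.13-fold difference (1.53 ± 0.17, limma adjusted p = 0.00619). Slc2a8 missed the threshold when CD49b+ replicate 2 was left out (adjusted p = 0.0643). Slc2a10 (GLUT10), a family member of endomembranes, had 1 read in each TRAIL+ library and 31 and 45 in the CD49b+ libraries, or 0.0733 and 0.0788 against 2.18 and 3.41 RPKM. It reached the level threshold through the CD49b+ libraries alone, so it had to differ. Its depth-scaled reads gave a ratio of 36.6, and counting error alone allows 9.78 to 307 (exact 95% interval, log2 fold change -1.80 ± 0.27, limma adjusted p = 0.0148). Within a library, Slc2a8 stood at 309 and 312 times the Slc2a10 level in TRAIL+ cells and at 3.56 and 2.14 times in CD49b+ cells. Each TRAIL+ ratio rests on 1 Slc2a10 read, so its size is poorly fixed, and the level threshold set the side of Slc2a10. Slc2a6 (GLUT6), a lysosomal member, was at 4.92 and 7.01 against 13.2 and 10.3 RPKM and did not pass (-0.88 ± 0.25, limma adjusted p = 0.105), except without TRAIL+ replicate 2 (adjusted p = 0.0357).

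Slc37a2, which exchanges sugar phosphate for phosphate in the endoplasmic reticulum, was the member with the largest negative log2 fold change. By the ratio of mean RPKM, Slc2a10 differed more, at 36.8-fold. Slc37a2 too reached the level threshold through the CD49b+ libraries alone, so it had to differ. Slc37a2 had 2 and 6 reads in TRAIL+ and 106 and 103 in CD49b+ libraries, or 0.110 and 0.356 against 5.62 and 5.88 RPKM. The fold was 24.7 (16.2 to 52.1 with 1 library left out), depth-scaled reads gave 25.1 (12.5 to 59.0 by counting error alone, exact 95% interval), and the log2 fold change was -2.46 ± 0.23 (limma adjusted p = 0.00356). Its relative Slc37a1 did not pass, at 9.07 and 9.58 against 6.56 and 6.20 RPKM (0.48 ± 0.19, limma adjusted p = 0.234). The Slc37a2 level was thus 0.0122 and 0.0371 of that of Slc37a1 in TRAIL+ libraries and 0.856 and 0.948 in CD49b+ libraries. The TRAIL+ ratios rest on 2 and 6 Slc37a2 reads, and the level threshold set the side of Slc37a2.

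Of 3 organic acid members, 1 was higher and 0 were lower in TRAIL+ cells, with a median log2 fold change of -0.57. Of 8 lipid, choline and acetyl-CoA members, 1 was higher and 0 were lower, with a median of 0.11. Over all tested genes, 4.76% were higher and 3.86% lower. Slc16a6 (MCT7), known for export of ketone bodies from liver cells, stood at 30.3 and 26.6 RPKM in TRAIL+ and 10.99 and 8.28 in CD49b+ libraries, a 2.95-fold difference (1.48 ± 0.21, limma adjusted p = 0.0117). The 14 hepatocyte markers summed to 109 and 103 RPKM in TRAIL+ and 57.1 and 24.3 in CD49b+ libraries, with Trf the 1 of 7 tested that was called higher, at 83.1 and 96.9 against 21.2 and 22.1. The other 13 summed to 26.1 and 6.14 against 35.8 and 2.23, higher in replicate 1 of each subset. The part of that RNA in the Slc16a6 level was not tested. Slc16a6 was not called once CD49b+ replicate 2 was left out (adjusted p = 0.102). The other members of its class, Slc16a7 and Slc16a13, lay below 3 RPKM in every library and did not pass (-0.65 and -0.57, limma adjusted p = 0.208 and 0.225). Slc16a7 reached the level threshold through the CD49b+ libraries alone, which fixed its side. Embigin (Emb), a membrane partner of monocarboxylate carriers and no Slc gene, was called lower, at 7.65 and 12.9 against 47.1 and 54.3 RPKM (-2.23 ± 0.27, limma adjusted p = 0.00744). Mfsd10, a carrier outside the Slc names, was called higher, at 65.4 and 79.8 against 19.1 and 22.2 RPKM (1.76 ± 0.18, limma adjusted p = 0.00467). Both came from a list of 14 tested carriers and partners outside the Slc names, of which 12 did not pass, with a median of 0.08.

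Slc27a6 (FATP6), of the fatty acid transport proteins that also form acyl-CoA, stood at 17.8 and 18.0 RPKM in TRAIL+ and 2.90 and 5.26 in CD49b+ libraries. The 4.39-fold difference passed (1.94 ± 0.27, limma adjusted p = 0.0125), and missed without CD49b+ replicate 1 (adjusted p = 0.0516). Among the other family members, Slc27a1 was at 3.85 and 2.91 against 1.26 and 1.45 RPKM (0.89 ± 0.24, limma adjusted p = 0.0913) and Slc27a4 at 12.4 and 14.8 against 20.1 and 20.4 (-0.55 ± 0.18, limma adjusted p = 0.160). The fatty acid carrier with the most transcript per length therefore was Slc27a6 in TRAIL+ and Slc27a4 in CD49b+ libraries. Slc44a2, a choline transporter-like protein and the most abundant of the 8 lipid, choline and acetyl-CoA members, was at 101 and 110 against 103 and 112 RPKM, with a 95% interval of the difference of -0.42 to 0.36. Choline kinase alpha (Chka) was at 3.20 and 3.79 against 7.21 and 6.67 RPKM and did not pass (limma adjusted p = 0.0772).

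Among 18 carriers of inorganic ions and protons 1 was lower in TRAIL+ cells and 17 did not pass, with a median of -0.12. The share called was 5.56%, beside 8.62% of all tested genes. Slc9a7 (NHE7), a sodium-proton exchanger of the trans-Golgi network, stood at 7.31 and 5.95 RPKM in TRAIL+ and 28.0 and 27.5 in CD49b+ libraries. It was 4.19-fold lower (-1.92 ± 0.19, limma adjusted p = 0.00372), a call kept in all 14 alternative settings. The exchanger genes Slc9a8 and Slc9a9 did not pass, with log2 fold changes of 0.39 and -0.13 and limma adjusted p of 0.466 and 0.749. Slc9a9, an endosomal exchanger and the most abundant of the class, was at 43.8 and 44.3 against 49.4 and 47.5 RPKM. The potassium-chloride cotransporter gene Slc12a7 (KCC4) was at 23.1 and 16.04 against 39.6 and 37.9 RPKM and missed the threshold (-0.97 ± 0.22, limma adjusted p = 0.0551), which it passed without TRAIL+ replicate 1 or 2 (0.00451 and 0.0449). Of the 5 cation-chloride cotransporters of the Slc12 family, 4 had negative and 1 a positive log2 fold change, and 0 were called (1 had an unadjusted limma p under 0.05). Of all 10047 tested genes, 8.62% were called and 2006 had an unadjusted limma p under 0.05.

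Of the sodium-potassium pump, which is not an Slc protein, the beta subunit genes Atp1b1 and Atp1b3 were lower in TRAIL+ cells. Atp1b1 stood at 90.5 and 84.1 RPKM against 240 and 225 (-1.40 ± 0.16, limma adjusted p = 0.00606). Atp1b3 was at 98.9 and 137 against 388 and 417 RPKM, 3.41-fold lower (-1.78 ± 0.22, limma adjusted p = 0.00778). Atp1b1 was not called without CD49b+ replicate 1 (adjusted p = 0.0917), and neither gene was without CD49b+ replicate 2 (0.0708 and 0.0555). The kinase gene Stk39 (SPAK), which phosphorylates cation-chloride cotransporters, was 21.2 and 22.6 against 9.26 and 7.48 RPKM and higher (1.30 ± 0.19, limma adjusted p = 0.0142), a result that missed with CD49b+ replicate 1 or 2 left out (0.0716 and 0.158). The mitochondrial carbonic anhydrase gene Car5b was at 0.498 and 0.229 against 20.2 and 19.9 RPKM, from 10 reads over the TRAIL+ and 566 over the CD49b+ libraries. It reached the level threshold through the CD49b+ libraries alone, so it had to differ. Its depth-scaled reads were 54.5 times as many in CD49b+ libraries (29.4 to 114 by counting error alone, exact 95% interval). Of the 15 vacuolar proton pump genes tested, 0 were called (0 also had an unadjusted limma p under 0.05) and the median was 0.04. Of all 10047 tested genes, 8.62% were called and 2006 had an unadjusted limma p under 0.05.

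The nucleotide sugar class held the Slc35 family, many of whose carriers bring nucleotide sugars into the Golgi and endoplasmic reticulum. Of its 17 members 1 was called, or 5.88%, beside 8.62% of all tested genes. Slc35e4, an orphan of this family, stood at 4.25 and 3.28 RPKM in TRAIL+ and 9.65 and 11.2 in CD49b+ libraries, 2.77-fold lower (-1.27 ± 0.22, limma adjusted p = 0.0242). Slc35e4 missed with CD49b+ replicate 1 or 2 left out (adjusted p = 0.131 and 0.214) and with no filter on low values. Slc35a2, the UDP-galactose carrier, was at 11.9 and 12.7 against 20.0 and 18.1 RPKM, and Slc35c1, the GDP-fucose carrier, at 35.4 and 39.9 against 49.9 and 57.1. Slc35a5 and Slc35e1 lay on the other side, at 14.5 and 17.1 against 8.87 and 10.8 RPKM and at 45.7 and 41.5 against 27.7 and 32.6. None of these 4 passed, with limma adjusted p of 0.1198, 0.174, 0.145 and 0.161. Their groups did not overlap, which also held for 46.8% of all tested genes. Slc35a4, the most abundant of the class, was at 66.0 and 82.4 against 67.4 and 73.2 RPKM.

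No member for nucleosides and nucleobases, vitamins, or organic cations, anions and vesicular amines passed the test, with 5, 5 and 4 members. The last of these groups included the urea carrier Slc14a1. Of all tested genes, 8.62% were called. Slc28a2, a sodium-coupled carrier of purine nucleosides, was the most abundant nucleoside member, at 27.3 and 29.3 against 19.9 and 19.1 RPKM (0.51 ± 0.16, limma adjusted p = 0.141). Beside it, adenosine deaminase (Ada) was called higher, at 16.5 and 18.5 against 4.18 and 5.43 RPKM (1.68 ± 0.21, limma adjusted p = 0.00828), and lost its call without CD49b+ replicate 1 (adjusted p = 0.0645). The uridine-cytidine kinase gene Uck2 was called lower, at 10.6 and 9.45 against 26.9 and 26.9 RPKM (-1.34 ± 0.17, limma adjusted p = 0.00876), and missed with CD49b+ replicate 1 or 2 left out (0.101 and 0.103). In this list of choline and nucleoside salvage enzymes 12 of 14 tested genes did not pass. Slc46a3, a lysosomal carrier and the vitamin class member with the most transcript, was at 12.5 and 15.996 against 10.4 and 14.5 RPKM. Slc14a1, the urea carrier, stood at 14.3 and 12.7 against 19.9 and 19.6 RPKM (-0.52 ± 0.17, limma adjusted p = 0.165), and Slc22a15 at 2.96 and 2.46 against 1.21 and 0.956 (0.83 ± 0.23, limma adjusted p = 0.104).

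A single metal carrier, the zinc importer gene Slc39a6, passed the test. Of 24 members for metals and heme, 1 was higher in TRAIL+ cells, 0 were lower and 23 did not pass, with a median of -0.01. The share called was 4.17%, beside 8.62% of all tested genes. Slc39a6 (ZIP6), which brings zinc into the cytosol across the plasma membrane, stood at 39.8 and 37.1 RPKM against 19.5 and 18.9, a 2.00-fold difference (0.96 ± 0.16, limma adjusted p = 0.0197). With CD49b+ replicate 1 or 2 left out it was not called (adjusted p = 0.228 and 0.253). Its known binding partner Slc39a10 (ZIP10) was at 11.8 and 9.83 against 5.89 and 6.91 RPKM (0.67 ± 0.20, limma adjusted p = 0.135), and the importer gene Slc39a4 (ZIP4) at 25.2 and 23.8 against 12.4 and 15.0 (0.80 ± 0.18, limma adjusted p = 0.0576). Neither of these passed. Their TRAIL+ libraries lay above the CD49b+ ones, and the groups did not overlap in 46.8% of all tested genes either. The other 7 of the 10 Slc39 members had log2 fold changes of -0.33 to 0.42. Slc39a7 (ZIP7), which releases zinc from the endoplasmic reticulum and was the most abundant of the class, was at 56.6 and 53.4 against 65.2 and 64.0 RPKM, with a 95% interval of -0.60 to 0.15.

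The Slc30 carriers, which move zinc out of the cytosol, had 0 of 6 members called (0 also had an unadjusted limma p under 0.05) and a median log2 fold change of -0.19. Of all 10047 tested genes, 8.62% were called and 2006 had an unadjusted limma p under 0.05. Slc30a1 (ZnT1), the exporter at the plasma membrane, was at 4.69 and 5.30 against 7.04 and 7.78 RPKM (-0.49 ± 0.20, limma adjusted p = 0.261). The zinc-induced metallothionein gene Mt1 had 1 read over the TRAIL+ libraries and 9 over the CD49b+ libraries, or 8.66 times as many at equal depth (exact 95% interval for counting error 1.20 to 380), and did not pass (limma adjusted p = 0.0540), except without TRAIL+ replicate 1 (adjusted p = 0.0135). Mt1 too was tested only through its level in CD49b+ libraries. Carriers of other metals included Slc11a2 (DMT1), an iron importer, at 10.8 and 11.7 against 5.56 and 6.88 RPKM (0.77 ± 0.20, limma adjusted p = 0.0890). The copper importer gene Slc31a1 was at 7.14 and 8.88 against 4.35 and 5.02 RPKM (0.66 ± 0.21, limma adjusted p = 0.157). Neither Slc31a1 nor Slc11a2 passed. In both the TRAIL+ libraries lay above the CD49b+ ones, beside 46.8% of all tested genes whose groups did not overlap.

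**Figure D4:**
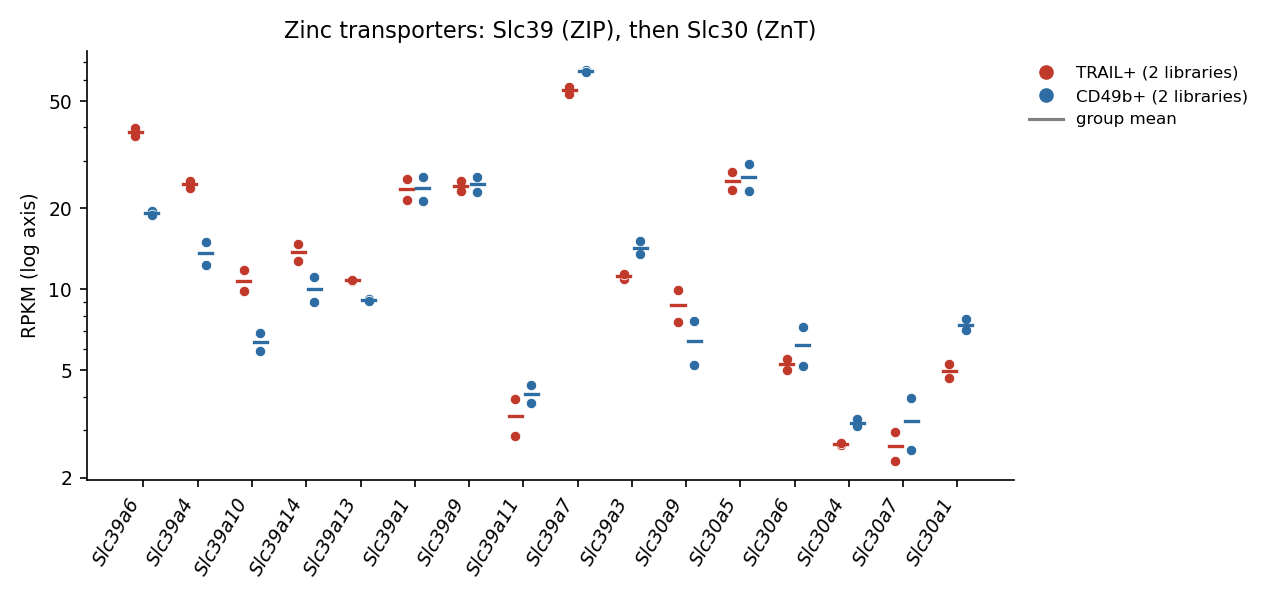
RPKM (log axis) of the 10 Slc39 and 6 Slc30 zinc carriers in each library, ordered by log2 fold change within each family, with TRAIL+ in red, CD49b+ in blue and bars for group means. Slc39a6, Slc39a4 and Slc39a10 at the left lie higher in TRAIL+ libraries, and Slc30a1 at the right lies lower.

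Mitochondrial carriers were the largest class and had 0 of 35 members called (5 had an unadjusted limma p under 0.05), with a median log2 fold change of 0.04. Over all tested genes 8.62% were called, and 2006 of 10047 had an unadjusted limma p under 0.05. The interval of the difference lay within 2-fold in 29 of the 35, beside 6468 of the 10047 tested genes. The ADP/ATP carrier gene Slc25a5 had the highest level of all members, at 309 and 434 RPKM in TRAIL+ and 321 and 376 in CD49b+ libraries, with a 95% interval of -0.52 to 0.67. The phosphate carrier gene Slc25a3 followed at 185 and 279 against 230 and 285 RPKM (interval -0.82 to 0.47). In both genes replicate 2 lay above replicate 1 in each subset. Slc25a11, the oxoglutarate carrier, was at 102 and 129 against 79.3 and 96.4 RPKM (0.39 ± 0.20, limma adjusted p = 0.383). The class member with the largest difference was Slc25a33, a pyrimidine nucleotide carrier, at 3.52 and 9.39 against 13.9 and 15.9 RPKM, whose TRAIL+ replicates differed from each other by more than 2-fold (-1.21 ± 0.41, limma adjusted p = 0.171). Without TRAIL+ replicate 2, the higher of the pair, Slc25a33 passed (adjusted p = 0.00329).

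Replicate numbers went with levels in a way that differed between classes. In 18 of the 35 mitochondrial carriers replicate 2 exceeded replicate 1 in both subsets, and in 6 the reverse held. For inorganic ion carriers these counts were 0 and 11 of 18, and for amino acid and peptide carriers 2 and 11 of 18. Over all tested genes they were 3753 and 3480 of 10047. The median gene length was 1968 bases in the mitochondrial carriers, 4186 in the ion carriers and 4287 in the amino acid class. The part of gene length in the replicate pattern was not tested, and a correction for gene length gave 8 members higher and 7 lower between the subsets. With that correction 9.93% of members were called, beside 13% of all tested genes.

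**Figure D5:**
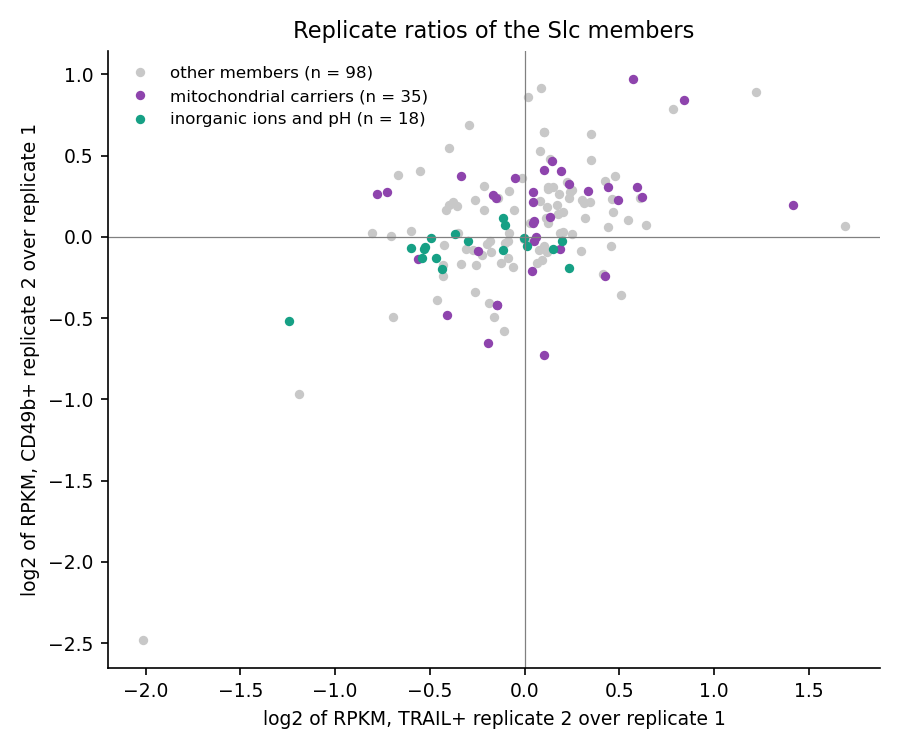
Log2 ratio of replicate 2 over replicate 1 in CD49b+ libraries (y axis) against the same ratio in TRAIL+ libraries (x axis) for the 151 Slc members, with mitochondrial carriers in purple and inorganic ion carriers in green. In the upper right lie 18 of 35 mitochondrial carriers, and in the lower left 11 of 18 ion carriers. The lone point at the lower left end is Slc11a1.

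Slc11a1 (NRAMP1), a metal carrier of phagocyte vesicles, was 1 of the 3 members nearest the level threshold and followed the replicate number. It stood at 1.38 and 0.342 RPKM in TRAIL+ and 1.22 and 0.219 in CD49b+ libraries, from 13, 3, 12 and 2 reads. The 13 Kupffer cell and monocyte markers with a row summed to 111 and 29.3 RPKM in TRAIL+ and 144 and 16.3 in CD49b+ libraries. Lyz2 gave 81.9 and 9.21 RPKM of these in TRAIL+ and 122 and 8.87 in CD49b+ libraries, with Marco at 0 throughout and 0 of the 8 tested called. Neutrophil markers summed to 27.3, 5.06, 30.3 and 0.644 RPKM, and erythroid and platelet markers to 103, 35.7, 111 and 5.81, in the same order of libraries. The part of those cells in the Slc11a1 level was not tested. The other members nearest the threshold were Slc15a2 and Slc16a7, and just outside it lay Slc18a2, Slc7a7 and Slc6a13, whose second highest levels were 0.990, 0.928 and 0.908 RPKM. Of the 151 members, 143 were at 1 RPKM or more in all 4 libraries, 5 were below 1 in both TRAIL+ libraries and 0 were below 1 in both CD49b+ libraries.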

How the data were processed

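RNA of flow-sorted TRAIL+ and CD49b+ liver NK cells (2 libraries each, groups and numbers from the titles) had been aligned by the authors with TopHat 1.4.1 to mm9, per the submitters' processing notes. The deposited values are RPKM per gene, per the file headers. Which tool and annotation counted reads, and whether strand was used, is not given in the sources used here, and overlapping genes may share reads.

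Read numbers were derived from the RPKM steps (whole within a tolerance of 1e-06 for 13680 of 13681 rows above 0), with 80.5% of 7937 single-accession lengths within 10% of the annotated one. They serve counting intervals, which cover counting error only, and one alternative. The 10047 of 21025 genes that reached 1 RPKM in 2 or more libraries were log2-transformed after adding 1 and fitted by limma 3.58.1 under R 4.3.3 (lmFit, eBayes with trend), with Benjamini-Hochberg adjustment over all of them. The fit was also run on simulated reads. These had no shared replicate pattern, and changes were placed only in genes with many reads. That check therefore does not cover low genes or the replicate pattern of these libraries. Folds are ratios of mean RPKM, and log2 fold changes are TRAIL+ minus CD49b+ ± SE, on a scale that understates low genes. Exact permutation cannot go below p = 0.333 with 2 libraries a group and was not used.

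Substrate classes follow Slc family numbers, and 8 lists of related genes were used. Genes were named as called members, the most abundant of each class, those nearest the level threshold, and up to 4 called genes per list. Other members, and genes of the lists that were not called, were named after their values were seen. Members and lists were chosen with earlier results of these data known. Some genes of these lists and classes are not reported here. Slc4a1ap was set as no transporter after the member names were seen. Tried alternatives were 2 other pseudocounts, 2 filters, each library left out, the replicate block, 2 normalizations, a prior without trend, voom and a length correction.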

Additional observations from a re-analysis of the deposited data

How the results depend on the processing

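With 1 library left out, the members called numbered 3 to 8 higher and 3 to 8 lower, against 7 and 5 with all libraries, and their median log2 fold change ranged from -0.02 to 0.07. Under each of the 10 other settings the counts were within 1.5 times, apart from the replicate block. Replicate numbers were shared between groups by number only. The deviations of same-numbered libraries from their group means correlated at 0.563 across genes, and a fit with the replicate number as a block called 17 members higher and 13 lower, all 12 main calls included, beside 18.7% of all genes. The 18 members that the block added to the 12 include Slc7a1, Slc12a7, Slc2a6, Slc27a1, Slc27a4, Slc28a2, Slc22a15, Slc35a2, Slc35a5, Slc35c1, Slc35e1, Slc39a4, Slc39a10, Slc11a2, Slc31a1 and Slc25a33, given above as not passing. All 12 called members kept their direction under every setting in which they were tested. Slc16a10 and Slc9a7 also kept their calls there. So did Slc37a2 and Slc2a10 (Slc2a10 was not tested at a minimum of 5 RPKM). These 2 reached the level threshold through the CD49b+ libraries alone and had to differ, so their kept calls add no support. The losses of the other called members came without a CD49b+ library or with no filter. Among the 66 genes followed, direction turned in 6 near 0, none called in those fits. With 1 library left out, Slc44a2 ranged from -0.086 to 0.028 (0.027 without TRAIL+ replicate 1), Slc25a3 from -0.47 to 0.12, Slc25a5 from -0.17 to 0.32 (-0.037 without CD49b+ replicate 1), Slc35a4 from -0.088 to 0.23, Slc1a5 from -0.11 to 0.021 and Slc46a3 from -0.027 to 0.41. The cause was not tested. Depth limits the low members, since 1 RPKM in 2000 bases is 7.57 to 8.47 reads.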

Other observations

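Of the 342 Slc rows, 187 lay below the level threshold, 125 of them with no read in any library and 62 with at least 1. The hepatocyte bile acid carrier gene Slc10a1 had 0, 1, 2 and 0 reads in TRAIL+ replicates 1 and 2 and CD49b+ replicates 1 and 2. The red cell anion exchanger gene Slc4a1 had 0 in every library. The cystine carrier gene Slc7a11, another light chain of Slc3a2, had 1 read, in CD49b+ replicate 1. The iron exporter gene Slc40a1 stood at 0.725 and 1.09 RPKM in TRAIL+ and 0.488 and 0 in CD49b+ libraries. These rows were chosen after their values were seen and were not tested as members.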
